A study of Mus musculus with 12 samples.

Results

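Cbx7 and Sin3b encode a pair of chromatin repressors measured here as exon bins, the non-overlapping exon parts into which a gene model is divided. The members were all rows of the deposited tables whose gene was Cbx7 or Sin3b, with repeated rows dropped. This gave 35 of 925 bins, 12 of Cbx7 and 23 of Sin3b, in 2 of 58 gene models. CBX7 is a chromobox subunit of a Polycomb repressive complex, and its chromodomain binds methylated histone tails. SIN3B is a scaffold of a histone deacetylase corepressor complex, and its paired amphipathic helix domains bind DNA-binding repressors that bring the complex to genes. A short SIN3B isoform that keeps the amino-terminal part of the protein is known beside the full-length one.

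The study asks how well changes of isoform are detected when the origin of the changed reads is known. The RNA was from the mouse cell line D1, and each of the 12 samples is a computer-made mixture of sequencing reads with 5 replicates. The background of 6 samples was a TruSeq library (poly(A)-selected and unstranded) made from 1000 ng of total RNA, and that of the other 6 a TruSeq library made from 100 ng. Every sample then received synthetic reads of listed transcripts, and reads of further listed transcripts sampled at depths of 20M, 40M or 80M (M, 1000000 reads) from either a NuGENv2 library with 2 ng of input or a TruSeq library with 100 ng. Each kit and depth has 1 table that holds both backgrounds. Nothing in the labels says that replicates came from separate cultures, so p-values measure only the spread between these replicates. No marker of dendritic or other cells out of a list of 17 was among the 58 gene models, so the cell line was not checked against its markers.

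Neither gene was a target of the reads taken from either kit. Of the Cbx7 model's 3 transcripts, 1 (uc007wuw.1) was in the list of synthetic transcripts with a complex isoform background that was mixed into the 100 ng samples. None of the 4 transcripts of the Sin3b model was in any list, which held for 4 of the 58 models. The numbers of reads over all 35 bins were the same in every table and replicate, with 1 exception: in the 100 ng sample of the 20M TruSeq table all 35 bins gained reads. That sample is therefore described on its own, and the other 5 tables differ for these genes only in scaling. Outside that sample, a replicate had between 347941 and 593002 reads over all bins with the 1000 ng background and between 237258 and 492142 with the 100 ng background. In it they ranged from 1101798 to 1281559. Values below are reads, or FPKM equivalents (reads per 1000 bases and per 1000000 reads of an inferred library size).

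The bins carry no coordinates in the tables and were laid on the genes by their order and inferred lengths (NCBIM37, the mm9 build, with GENCODE vM1). Cbx7 (ENSMUSG00000053411.9) spans chr15:79746237-79801549 on the minus strand, with 6 annotated transcripts. In it 11 of 12 bins were placed, and the bin at the 5′ end, E012, was not. Bins are numbered by position, so Cbx7 E001 is at the 3′ end of the transcripts. E001 to E003 lie in noncoding sequence of the last exons, and E006, E009, E010 and E011 are exons that all 6 transcripts share. E007 is coding sequence held whole by 1 transcript, Cbx7-002, and E005 and E008 fall between annotated exons. Sin3b (ENSMUSG00000031622.9) spans chr8:75247187-75282102 on the plus strand and all its 23 bins were placed. Its long transcript, Sin3b-201, has 19 exons and its short transcript, Sin3b-202, has 7. E001 to E006 are exons of both, E008 is the last exon of the short one, and E010 to E020, E022 and E023 belong to the long one alone. E007, E009 and E021 fall in annotated introns.

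The Sin3b results turn on the place where the short and long transcripts part, and the bases around these bounds, 15 on each side on the plus strand, are shown for that reason. Capitals mark the GT that follows an exon or the AG that precedes one.
Sin3b E006 to E007, end of the last shared exon, chr8:75263373-75263402: tctgcgccagccaagGTacttgtccatgtg
Sin3b E007 to E008, start of the short transcript's last exon, chr8:75263614-75263643: atgactctttcgtAGgtggggctgcagttg
Sin3b E009 to E010, start of the first long-only exon, chr8:75265358-75265387: ggtttctctccgcAGaagaagatgaagctc
Sin3b E020 to E021, start of the downstream intron bin, chr8:75280452-75280481: ggtgttcctgcagagGTgagagcagggtcc
Sin3b E021 to E022, end of that intron bin, chr8:75280732-75280761: gccctgtccttgcAGgaacctgaagaagtt
The exons on either side of the fork are E006, the last that both transcripts hold, and E010, the first that only the long one holds.
Sin3b E006, chr8:75263268-75263387: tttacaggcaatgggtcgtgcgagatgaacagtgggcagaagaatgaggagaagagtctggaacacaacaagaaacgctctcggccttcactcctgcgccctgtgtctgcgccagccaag
Sin3b E010, chr8:75265373-75265462: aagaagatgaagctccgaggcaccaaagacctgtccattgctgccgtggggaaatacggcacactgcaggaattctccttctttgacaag
For Cbx7 the shared coding exons E010 and E011, which hold part of the chromodomain, are given in the sense of the gene (minus strand), since they are short bins with high levels per base.
Cbx7 E011, chr15:79761016-79761059: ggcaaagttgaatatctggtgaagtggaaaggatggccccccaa
Cbx7 E010, chr15:79753902-79753967: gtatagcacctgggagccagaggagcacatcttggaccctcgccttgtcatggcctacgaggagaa

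Cbx7 was a gene of low read number in both backgrounds, and no difference between them was called outside the 20M TruSeq table. Over its 12 bins the 5 replicates of the 1000 ng background held 176, 391, 168, 187 and 148 reads. The 5 replicates of the 100 ng background held 113, 86, 271, 255 and 100 reads. The highest count was that of 1000 ng replicate 2, and the ranges of the backgrounds overlapped. The 100 ng counts include any synthetic reads of the listed Cbx7 transcript, uc007wuw.1, which the values do not separate from library reads.

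Scaled to library size in the 20M NuGENv2 table, the Cbx7 total was an FPKM equivalent of 1.18 ± 0.11 with 1000 ng and 1.14 ± 0.19 with 100 ng (SD, n = 5 each). Single replicates lay between 1.09 and 1.37 in the former and between 0.91 and 1.40 in the latter, so the narrower range lay inside the wider. The log2 difference (1000 ng minus 100 ng, on log2 of the FPKM equivalent plus 1) was 0.02 with a standard error of 0.07, and the limma adjusted p was 0.805. In that table limma called 5.17% of all gene model totals at an adjusted p under 0.05, and in the 40M NuGENv2, 80M NuGENv2, 40M TruSeq and 80M TruSeq tables it called 17.2%, 24.1%, 39.7% and 41.4%. Across the 5 tables with equal reads the difference ran from 0.02 to 0.07, with limma adjusted p from 0.572 to 0.834. Without 100 ng replicate 2 the difference in the 20M NuGENv2 table was -0.02, and without 1000 ng replicate 2 it was -0.01, so its sign rests on single replicates.

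Levels per base within Cbx7 differed between annotated classes of bin in both backgrounds, but these classes also differ in bin length. The 4 exons held by all transcripts had a pooled FPKM equivalent of 5.88 ± 0.98 with 1000 ng and 5.33 ± 1.55 with 100 ng (SD, n = 5 each). The noncoding bins E001 to E003 had 1.51 ± 0.20 and 1.53 ± 0.26 (SD, n = 5 each). The bins between annotated exons, E005 and E008, had 0.33 ± 0.11 and 0.35 ± 0.04 (SD, n = 5 each), the lowest of these groups in both backgrounds. All 5 replicates of each background kept this order of the 3 groups. The shared exons span 44 to 73 bases, whereas E002 and E008, the longest bins of the other groups, span 2238 and 2267. The noncoding E001, of 6 bases, had 27.3 ± 20.7 and 19.8 ± 24.6, beside 1.44 and 1.47 in E002 (means, n = 5 each). Class and length were therefore not separated.

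E002, which spans 2238 bases of the last exon, carried the most Cbx7 reads in every replicate. It held 91, 178, 66, 91 and 69 reads in the 1000 ng replicates and 57, 43, 126, 124 and 48 in the 100 ng replicates. The chromodomain bin E011 held 15, 14, 10, 5 and 6 reads in the 1000 ng replicates and 3, 2, 13, 11 and 4 in the 100 ng replicates. Over both backgrounds its counts overlapped, with the lowest at 2 reads in 100 ng replicate 2 and the highest at 15 in 1000 ng replicate 1. E007, the bin of Cbx7-002, held between 1 and 9 reads. Its FPKM equivalents were 0.75 ± 0.25 against 0.55 ± 0.27 (SD, n = 5 each), lower per base than in E011 (7.91 ± 3.34 and 5.89 ± 2.50). E007 spans 279 bases and E011 44, and the part of bin length in this contrast was not tested.

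**Figure D1:**
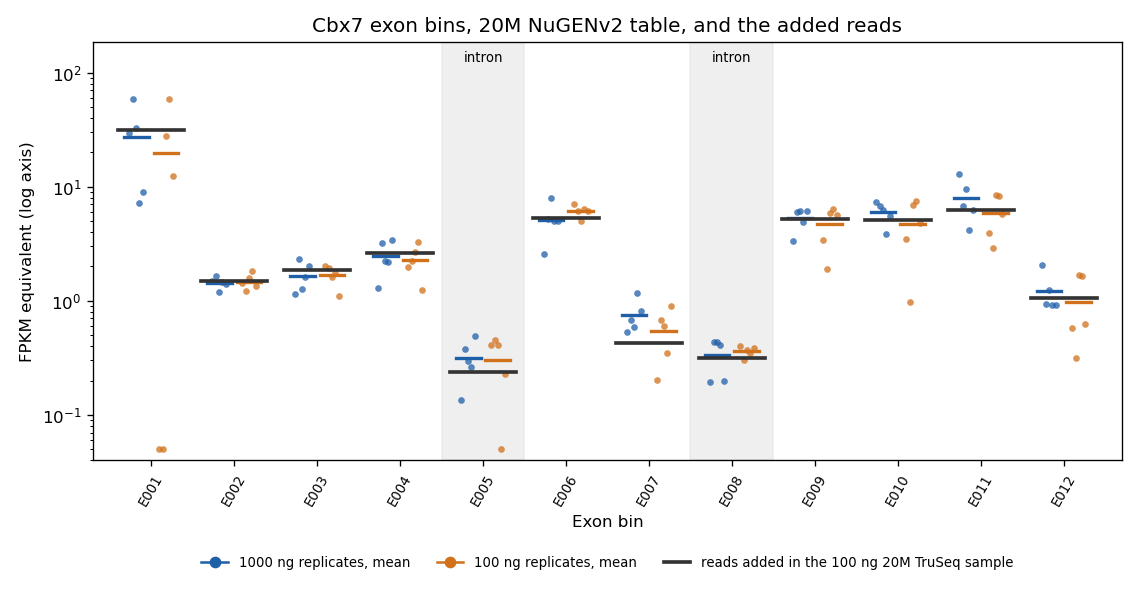
Cbx7 FPKM equivalents by exon bin (log axis) in the 20M NuGENv2 table. Points are the 5 replicates of each background, coloured lines their means and black lines the level of the reads added in the 100 ng 20M TruSeq sample, with values of 0 drawn at the lower edge. In all 12 bins the black line lies near the coloured ones, and the shaded intron bins E005 and E008 are low in all.

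limma called 0 of the 12 Cbx7 bins in each of the 5 tables with equal reads, where it called between 1.95% (20M NuGENv2) and 21.4% (80M TruSeq) of all bins. The shares were 4.99%, 12.3% and 16.9% in the 40M NuGENv2, 80M NuGENv2 and 40M TruSeq tables. There 0 of the 12 bins reached an unadjusted p under 0.05. The exact permutation test over replicates also called 0, but with 5 replicates a group it called 0 of all 922 bins in 4 of these tables, so there its count says nothing about Cbx7. In the 80M TruSeq table it called 169 of all bins and 0 of Cbx7. In the 20M NuGENv2 table the bin differences had a median of 0.13 on the log2 scale, beside 0.00 over all 922 bins tested. The largest, 1.55 with a standard error of 1.24, was that of E001, a bin of 6 bases with between 0 and 14 reads. Replicates of the backgrounds overlapped in all 12 bins in that table, where 5.97% of all bins did not overlap.

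Bin usage, tested with limma's diffSplice as the change of each bin relative to the rest of its gene model, was not called for Cbx7 in the 6 tables. In the 20M NuGENv2 table the adjusted p was 0.835, and 27.6% of gene models were called, beside 31% and 39.7% in the 40M and 80M NuGENv2 tables and 46.6% in each of the 40M and 80M TruSeq tables. Without 100 ng replicate 4, however, usage was called in the 5 tables with equal reads, with diffSplice adjusted p between 0.025 and 0.043. As a single bin, the short E001 was called higher in the 1000 ng background relative to its model in 4 of these tables (diffSplice adjusted p 0.049, 0.027, 0.021 and 0.016 in the 40M NuGENv2, 80M NuGENv2, 40M TruSeq and 80M TruSeq tables). Over all bins the same test called 5.53%, 10.8%, 13.9% and 19.1% in these tables, so 1 of 12 bins is near the background. The E001 call was lost in each of the 4 tables without 1000 ng replicate 1, 2 or 3 or without 100 ng replicate 1 or 2, and on the values as deposited (diffSplice adjusted p 0.646 in the 40M NuGENv2 table without 100 ng replicate 1).

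Sin3b held many more reads than Cbx7, and its background difference was likewise not called outside the 20M TruSeq table. The 1000 ng replicates held 3707, 11958, 7130, 9182 and 8915 Sin3b reads. The 100 ng replicates held 8648, 5572, 8743, 7759 and 6061 reads. The lowest and the highest count were both in the 1000 ng background, in replicates 1 and 2.

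As FPKM equivalents in the 20M NuGENv2 table, the Sin3b total was 21.5, 39.0, 45.7, 52.0 and 63.2 in the 1000 ng replicates and 77.0, 55.0, 38.4, 39.7 and 59.5 in the 100 ng replicates. The means were 44.3 ± 15.5 and 53.9 ± 15.9 (SD, n = 5 each), and 1000 ng replicate 1 and 100 ng replicate 1 stood at the low and high ends of overlapping ranges. The log2 difference was -0.31 with a standard error of 0.30 and a limma adjusted p of 0.576. It ran from -0.31 to -0.24 over the 5 tables with equal reads (limma adjusted p from 0.538 to 0.621). On the values as deposited, without library scaling and without the fifth 100 ng column, it was 0.03, and without 1000 ng replicate 1 it was -0.08 in the 20M NuGENv2 table.

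**Figure D2:**
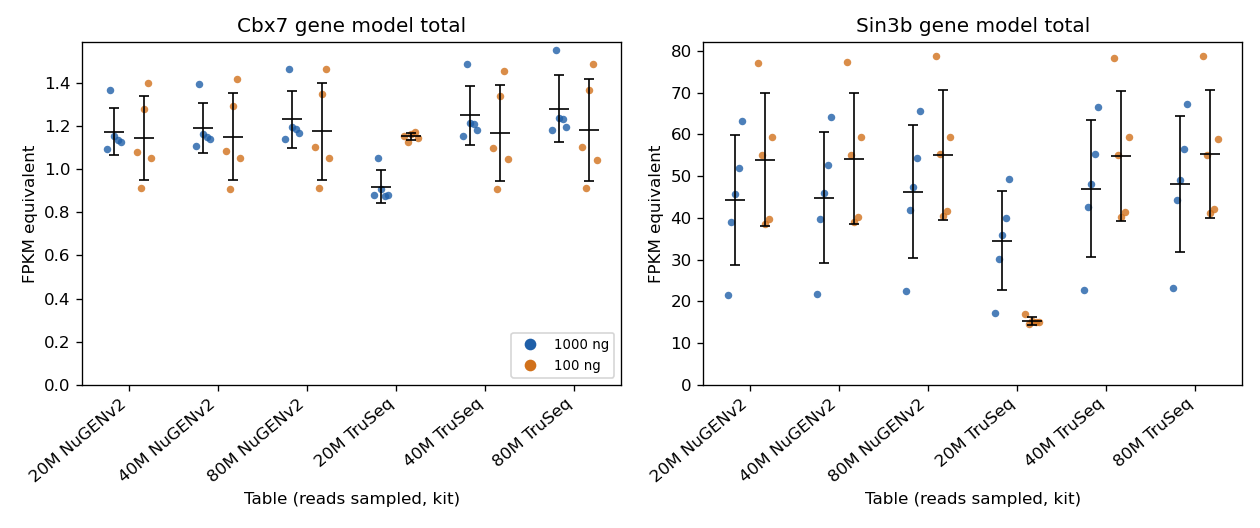
FPKM equivalents of the Cbx7 and Sin3b gene model totals in the 6 tables, with a point per replicate and bars for the mean ± SD of 5 replicates in each background. The backgrounds overlap in 5 tables, and only in the 20M TruSeq table do the 100 ng replicates form a narrow band, above the 1000 ng replicates for Cbx7 and below them for Sin3b.

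In 1000 ng replicate 1 the exons of the long Sin3b transcript were low against the other replicates. Over the 6 shared exons the pooled FPKM equivalent was 98.6 in 1000 ng replicate 1 and between 130.0 and 177.7 in the other 4. Over the 13 long-only bins it was 12.5 in that replicate and between 35.5 and 65.3 in the others. E013, one of these bins, held 77 reads in 1000 ng replicate 1, against 430, 278, 380 and 360 in the other 1000 ng replicates and 365, 228, 312, 257 and 215 in the 100 ng replicates. In 22 of 23 Sin3b bins 1000 ng replicate 1 had the lowest scaled value of its background, and in 7 of 12 Cbx7 bins. This was not counted over all bins, so it cannot tell a trait of Sin3b from one of the replicate.

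The level of the long-only bins relative to the shared exons, in reads per base, does not depend on library scaling. It was 0.13, 0.27, 0.34, 0.36 and 0.37 in the 1000 ng replicates and 0.41, 0.40, 0.30, 0.28 and 0.40 in the 100 ng replicates. The means were 0.293 ± 0.100 and 0.358 ± 0.062 (SD, n = 5 each), and the ranges overlapped. The difference of the mean log2 ratios was -0.37 (2-sided exact permutation test, p = 0.302, where the smallest possible p is 0.0079). It was -0.09 without 1000 ng replicate 1 (exact permutation p = 0.603).

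The last exon of the short transcript, E008, held 144, 242, 119, 139 and 155 reads in the 1000 ng replicates and 132, 104, 178, 206 and 187 in the 100 ng replicates. Relative to the shared exons its level was 0.222 ± 0.044 and 0.282 ± 0.092 (SD, n = 5 each), with overlapping ranges (2-sided exact permutation test, p = 0.214 for the log2 ratios). The highest ratio was 0.43 in 100 ng replicate 5. Both E008 and the long-only bins therefore carried reads in every replicate of both backgrounds.

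The 3 intron bins were not alike. E021 had FPKM equivalents of 34.9 ± 16.8 and 42.5 ± 17.3 (SD, n = 5 each), within 1 SD of those of the exons beside it, E020 (39.4 ± 18.2 and 50.8 ± 14.99) and E022 (36.6 ± 16.4 and 49.6 ± 14.2). E009, the intron between the short transcript's end and E010, had 3.96 ± 1.80 and 8.99 ± 5.20. E007, between E006 and E008, had 25.4 ± 8.6 and 35.7 ± 11.8. The last exon of the long transcript, E023, of 1029 bases, was low against its neighbours at 4.80 ± 2.03 and 8.82 ± 4.18 (SD, n = 5 each). E009 also is a long bin, of 1562 bases, against 241 in E007 and 280 in E021. The part of bin length in these contrasts was not tested.

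limma called 0 of the 23 Sin3b bins in each of the 5 tables with equal reads, beside the shares of all bins given above. All 23 differences in the 20M NuGENv2 table were below 0, with a median of -0.42, and 2 of 23 bins had an unadjusted p under 0.05, where 17.8% of all bins did. These were E009 (-0.93, standard error 0.41, limma adjusted p 0.266) and E023 (-0.74, standard error 0.32, limma adjusted p 0.259). Of the Sin3b bins in the 40M and 80M TruSeq tables, 0 had an unadjusted p under 0.05, where 262 and 277 of all 922 bins did. The exact permutation test called 0 Sin3b bins in the 80M TruSeq table, the only one of the 5 in which it called any bin. Without 100 ng replicate 3, 1 Sin3b bin (E009) was called in the 80M TruSeq table. Usage of Sin3b bins was not called in these tables (diffSplice adjusted p 1.00 in each).

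The 100 ng sample of the 20M TruSeq table was the exception for both genes. Each of its 5 replicates gained 1266 reads over Cbx7 and 13033 over Sin3b compared with every other 100 ng sample, and the gain was the same number in all 5 replicates for each of the 35 bins. The added reads made up between 82.4% and 93.6% of the Cbx7 reads and between 59.9% and 70.1% of the Sin3b reads of these replicates. Because this part was the same in all 5 replicates, they are not independent samples, and p-values that rest on their spread are too small. No list names these genes for the kit reads. Reads over all bins rose as well, in replicate 1 from 237258 in the 100 ng 20M NuGENv2 sample to 1101798. The gain was therefore not particular to Cbx7 and Sin3b.

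Set against a library of 184.9M reads, the inferred size of what was added, the gained reads give 1.15 FPKM for Cbx7 (95% Poisson interval 1.09 to 1.22, counting error only) and 11.1 FPKM for Sin3b (10.9 to 11.3). The label names a depth of 20M for this sample, and why the inferred size differs from it was not tested. All added levels, and all ratios of background to added levels, scale with the inferred size. The Cbx7 level of the 100 ng background in the 20M NuGENv2 table was 0.99 ± 0.17 times (SD, n = 5) that of the added reads, and the Sin3b level 4.87 ± 1.43 times. Replicates ranged from 0.79 to 1.21 for Cbx7 and from 3.47 to 6.95 for Sin3b, without overlap. Among the 58 gene models Cbx7 had the lowest such ratio and Sin3b was the 41st from the lowest. The median was 1.08 over the 21 models with a transcript in a kit list, 4.62 over the 33 models listed only for synthetic reads, and 1.28 over all. Cbx7, listed for synthetic reads, thus lay below the former median, and Sin3b, in no list, lay above the latter. The Cbx7 level of the 100 ng background includes any synthetic reads of uc007wuw.1.

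Within Cbx7 the added reads, like those of the backgrounds, were most numerous in E002. E002 gained 612 reads, E008 133 and E004 97, while E005 gained 12. The ratio of the 100 ng background to the added reads, averaged over replicates, lay between 0.63 and 1.28 in the 12 bins, and that of the 1000 ng background between 0.87 and 1.76. Across the 12 bins, which share libraries and length bias, Pearson's r between log2 levels (plus 1) of the added reads and the 100 ng mean was 0.99.

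Within Sin3b the profiles differed along the gene. The shared exons E001 to E006 gained 9547 reads, an added level of 61.6 FPKM, and the long-only bins 2232 reads, an added level of 3.70 FPKM. The 100 ng background was 2.41 times the added level in the former (1.99 to 3.26 over replicates) and 14.6 times in the latter (9.61 to 22.2). E008 gained 752 reads, and there the background was 1.84 times the added level.

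The last shared exon and the first long-only exon, printed above, show this. E006 gained 1862 reads and E010 gained 92, although E006 held 534, 334, 663, 572 and 330 reads in the 100 ng replicates before the addition and E010 held 251, 138, 212, 167 and 161. In the added reads the long-only bins stood at 0.060 of the shared exons, below each of the 10 background replicates. E008 stood at 0.365, above 9 of the 10. In 12 of 23 Sin3b bins the 100 ng mean was over 10 times the added level, with the highest ratio, 48.9, in the intron bin E009, which gained 53 reads. E023 departed most from the other long-only bins: it gained 538 reads and its ratio was 3.12. E020 and E022 also had low ratios, 7.81 and 8.86, against 15.5 to 25.7 in E010 to E019. Across the 23 bins Pearson's r between log2 levels of the added reads and the 100 ng mean was 0.66.

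**Figure D3:**
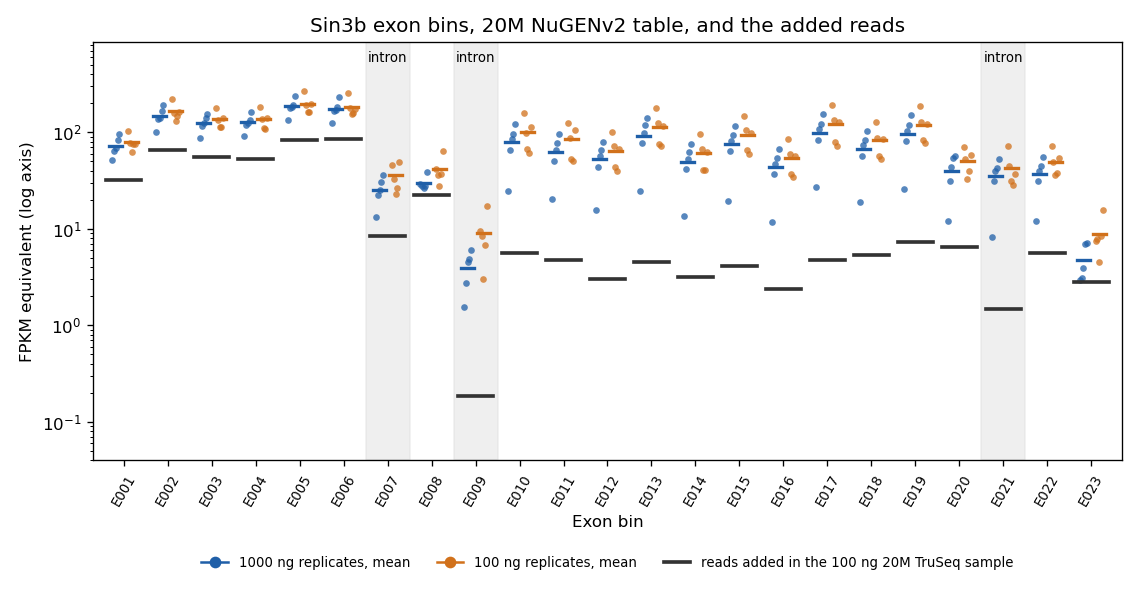
Sin3b FPKM equivalents by exon bin (log axis) in the 20M NuGENv2 table, with points for the 5 replicates of each background, coloured lines for their means and black lines for the reads added in the 100 ng 20M TruSeq sample. The black lines lie just below the points in E001 to E006 and E008 and further below them in E009 to E019 and E021, with E020 and E022 between. In E010 to E022 1000 ng replicate 1 is the low blue point.

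With these reads included, the ratio of long-only bins to shared exons in the 100 ng 20M TruSeq sample was 0.14, 0.12, 0.13, 0.12 and 0.12 in its 5 replicates, with a mean of 0.124 ± 0.011 (SD, n = 5). The 1000 ng replicates of the same table held the reads given above, with a mean of 0.293. The log2 difference was 1.14 (2-sided exact permutation test, p = 0.016), and only 1000 ng replicate 1 (0.13) fell within the range of the 100 ng replicates. For E008 the ratio was 0.344 ± 0.021 (SD, n = 5) and the log2 difference -0.65 (exact permutation p = 0.0079, the smallest possible). The same added reads are in all 5 of the 100 ng replicates, and the ratios were chosen after the values were seen. Both p-values are therefore too small, and no conclusion is drawn from them.

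**Figure D4:**
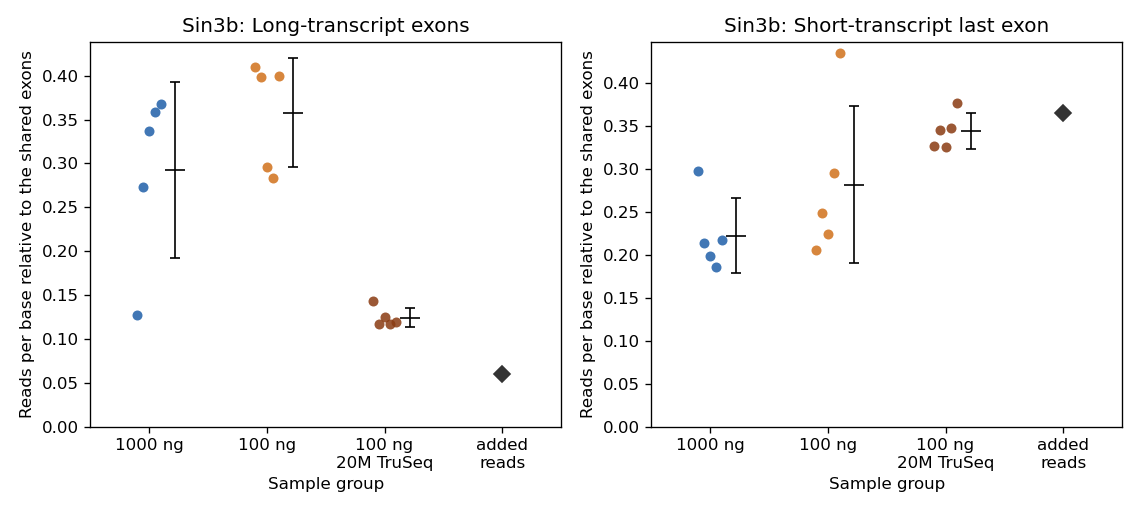
Reads per base relative to the Sin3b exons shared by both transcripts, for the long-only bins (left) and the short transcript's last exon (right), with a point per replicate, bars for the mean ± SD of 5 replicates, and a diamond for the added reads. The added reads lie at 0.060 on the left, below all background replicates, and at 0.365 on the right, above all but 1 of them.

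In the 20M TruSeq table the Sin3b total was 34.5 ± 11.9 with 1000 ng and 15.3 ± 0.93 with 100 ng (SD, n = 5 each). The lowest 1000 ng replicate, at 17.3, lay just above the highest 100 ng replicate, at 16.9. The log2 difference was 1.05 with a standard error of 0.24 (limma adjusted p 0.0029, where 79.3% of gene models were called). This direction depends on the scaling: the difference was 0.42 with size factors from gene models that no kit list names, and -0.92 on the values as deposited without the fifth 100 ng column. The Cbx7 total was 0.92 ± 0.08 against 1.15 ± 0.02 (SD, n = 5 each), also with no overlap, and the log2 difference was -0.17 with a standard error of 0.03 (limma adjusted p 0.00073). It was -0.44 and -0.26 under the same 2 other scalings. Those scalings also moved the median over all 58 totals, from 0.01 to -0.46 and -0.67. Relative to that median Cbx7 lay 0.18 below it in the reported fit and 0.02 and 0.40 above it under the other scalings. Sin3b lay 1.03 above it, 0.87 above it and 0.26 below it in the same order. The values as deposited are reads per base, and 1 was added to them before log2. Cbx7 held 1379 reads over a summed bin length of 5929 in 100 ng replicate 1, so the added 1 outweighed its level. That shrinks the log2 differences of such low genes, so positions on these values are not comparable with those in the reported fit. The 1000 ng reads of both genes were those of the other tables, so their lower FPKM equivalents here come from the scaling alone.

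limma called 21 of 23 Sin3b bins in this table, all higher in the 1000 ng background, where 62.4% of all bins were called and 32.6% were called in that direction. Differences were 0.51 to 0.67 on the log2 scale in E001 to E006 and 1.25 to 1.99 in E010 to E022. With size factors from models that no kit list names, 15 were called, 13 of them higher in the 1000 ng background, and on the values as deposited without the fifth 100 ng column 12 were called, all higher in the 100 ng sample. In the reported fit the 2 bins not called were E008 (-0.05, standard error 0.10) and E023 (0.05, standard error 0.20). Of the Cbx7 bins, 2 of 12 were called, E002 (-0.22, limma adjusted p 0.0034) and E003 (-0.32, limma adjusted p 0.019), both higher in the 100 ng sample, as were 29.7% of all bins. Under those scalings 10 and 12 Cbx7 bins were called, and without 1000 ng replicate 2 there were 4, again all higher in the 100 ng sample. Over all bins the calls split into 301 higher and 274 lower in the 1000 ng background in the reported fit, 213 and 513 under the former scaling and 15 and 722 under the latter. Replicates did not overlap in 10 Sin3b and 3 Cbx7 bins, beside 51% of all bins.

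**Figure D5:**
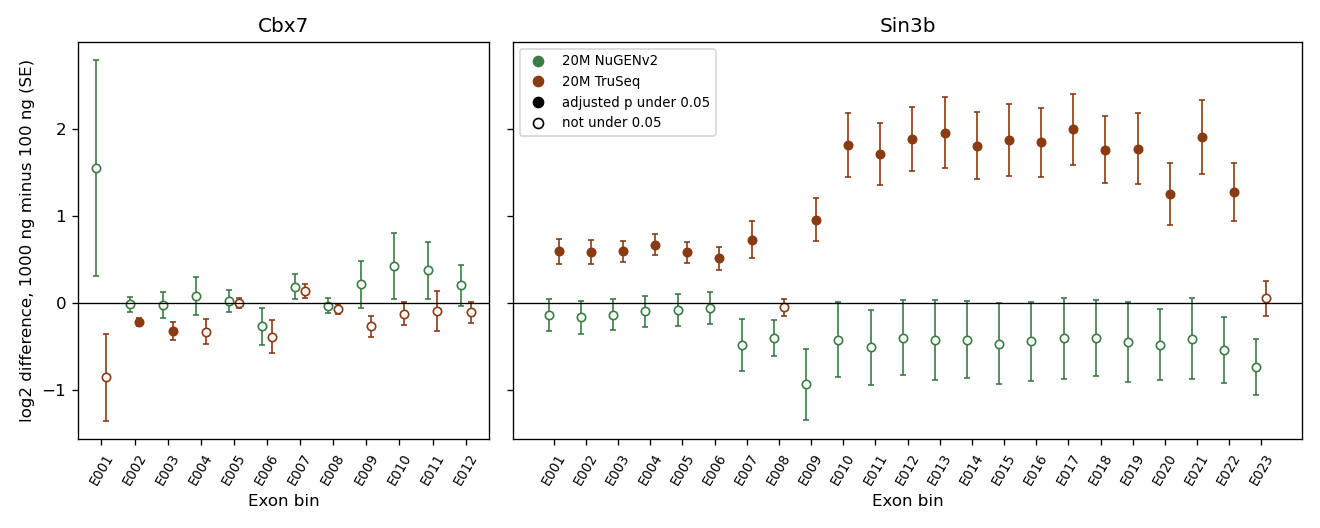
log2 difference of each exon bin (1000 ng minus 100 ng) with its standard error in the 20M NuGENv2 and 20M TruSeq tables, with filled points for a limma adjusted p under 0.05. No bin is filled in the 20M NuGENv2 table, and 21 Sin3b bins are filled in the 20M TruSeq table, near 0.6 in E001 to E006 and between 1.25 and 1.99 in E010 to E022.

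Sin3b bin usage was called in the 20M TruSeq table (diffSplice adjusted p 7.1e-08, where 58.6% of gene models were called). As single bins E008 and E023 were called, both lower in the 1000 ng background relative to the rest of the model (-1.33 and -1.22 on the log2 scale, diffSplice adjusted p 0.0014 and 0.0039). The test called 18.1% of all bins in this table, above the share of Sin3b bins called. On the values as deposited without the fifth 100 ng column E023 was at 0.24 and not called. Cbx7 usage was not called there (adjusted p 0.159), although as a single bin E001 was (-0.69, diffSplice adjusted p 0.011). That call was lost without 1000 ng replicate 4 or 5 (0.192 and 0.177). With size factors from models that no kit list names, Cbx7 usage was called (diffSplice adjusted p 0.00092), and so it was without 1000 ng replicate 2 (0.002).

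Over the 10 replicates of the 20M NuGENv2 table, the gene models whose log2 totals were most like those of Cbx7 were Aes (Pearson's r 0.84), Cyth4 (0.77) and Pla2g16 (0.73). Those most like Sin3b were Dnaja1 (0.81), Atg16l1 (0.80) and Evi5l (0.74). These are descriptions over columns that share libraries and scaling. Of 50 other genes of chromatin and transcriptional repression, only Aes, which encodes a Groucho-related corepressor, was among the gene models. Its total was called higher in the 1000 ng background in the 40M and 80M TruSeq tables (0.70 and 1.18 on the log2 scale). There 39.7% and 41.4% of all gene model totals were called. It was not called in the other 4, at 0.03, 0.09 and 0.22 in the 20M, 40M and 80M NuGENv2 tables and 0.05 in the 20M TruSeq table. The Aes difference thus rose with the depth of the sampled reads in each kit, and the part of added reads in it was not tested.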

How the data were processed

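The members and gene lists were chosen with earlier results of these data known. The deposited values are a coverage signal: in 9 of 10 columns of each table whole reads divided by bin length, and in the fifth 100 ng column divided further by a number read as its library total in 1000000 reads. Lengths and divisors were inferred from the values, and 100% of values then gave whole reads (tolerance 0.001). STAR, Cuffdiff and mm9 are named per the submitters' processing notes. No source used here gives how reads were counted.

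Normalized values had been assumed in the design. Because the unit differed, FPKM equivalents were computed here: columns were scaled by median-of-ratios size factors (bins without a 0 in any of the 10 columns), set to the library total of the fifth 100 ng column. log2 of the value plus 1 was tested with limma 3.58.1 in R 4.3.3 (5 against 5 replicates, Benjamini-Hochberg, threshold 0.05). Bins with a mean of at least 1 or in a listed gene model were tested. Bin usage was tested with diffSplice. The limma test of bins was checked on simulated data, and diffSplice was not. The Sin3b ratios were chosen after the values were seen. Named genes were both members, the 3 models most correlated with each, and listed repressors. The alternatives were another pseudocount, no filter, other scalings, the replicate block, exact permutation and leaving out each replicate.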

Additional observations from a re-analysis of the deposited data

Results flagged for a closer look

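Among 82 groups of 5 replicates (the 35 bins, the totals and the Sin3b ratios in each background), 5 held a replicate far from the other 4, and chance flags about 1 in 20. Of Cbx7, these were E012 in 1000 ng replicate 1, with an FPKM equivalent of 2.05, and the gene total in 1000 ng replicate 2, at 1.37. Of Sin3b, they were E006 in 100 ng replicate 1, at 254.2, E008 in 1000 ng replicate 5, at 38.6, and the ratio of E008 to the shared exons in 1000 ng replicate 1, at 0.297. All of these were the highest of their group.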

How the results depend on the processing

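Away from the 20M TruSeq table, the Sin3b total turned to 0.029 on the values as deposited without the fifth 100 ng column in each of the 5 tables, with no call. In the 20M TruSeq table those values gave -0.92 for the Sin3b total, 12 called bins for Cbx7 (2 in the reported fit) and 12 for Sin3b (21), a Cbx7 usage adjusted p of 4.4e-23, and 0.24 for the single-bin usage of Sin3b E023. Size factors from models that no kit list names gave 10 called Cbx7 bins and a usage adjusted p of 0.00092. The cause was not tested. Of 244 values under alternatives other than leaving out a replicate, 223 kept their direction and side of the threshold or, as counts of called bins, stayed within 1.5 times (3 such counts changed).

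Leaving out each replicate gave a Cbx7 total between -0.016 and 0.066 (20M NuGENv2), -0.012 and 0.073 (40M NuGENv2) and -0.0042 and 0.087 (80M NuGENv2). Cbx7 usage adjusted p ran from 0.043, 0.040, 0.031, 0.025 and 0.025 (20M, 40M and 80M NuGENv2, 40M and 80M TruSeq) to 1.00, and from 0.0020 to 0.468 in the 20M TruSeq table, where 2 to 4 Cbx7 bins were called. Between 0 and 1 Sin3b bins were called in the 80M TruSeq table. The Sin3b ratio difference ran from -0.47 to -0.09.

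With replicate numbers as a replicate block the Sin3b total was -0.31 (limma adjusted p 0.683) in the 20M NuGENv2 table and 1.05 (0.013) in the 20M TruSeq table, and the calls of totals, bins and gene-level usage of both genes were the same. The single-bin usage call of Cbx7 E001 was lost with the block in the 40M and 80M NuGENv2 and 40M and 80M TruSeq tables (diffSplice adjusted p 0.140, 0.099, 0.079 and 0.063). Numbers do not come from the labels as pairs, and same-numbered replicates correlated between -0.38 and 0.09. With few reads, Cbx7 bins limit what can be detected. Scaling and the size of the added library rest on inferred totals.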
